A study of Mus musculus with 4 samples.

Results

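The 9 genes described here encode the contractile apparatus of smooth muscle: Acta2, Tagln, Cnn1, Myh11, Lmod1, Tpm1, Tpm2, Actg2 and Myl9. They were taken by name from a table of 30268 genes, and all 9 were present. The study profiled cells of the mouse embryonic heart by Drop-seq, in which each cell is lysed in its own droplet beside a bead that tags its RNA, so that unique molecular identifiers (UMIs, 1 per captured transcript) are counted near the 3' end of each RNA. There were 4 libraries, 1 per genotype and stage, from the embryonic days E13.5 and E14.5. Controls carried Wt1 CreERT2/+ and Rosa26mTmG/+, and knockouts (Lats1/2 CKO) carried Wt1 CreERT2/+, Lats1/2 F/F and Rosa26mTmG/+. Both genotypes therefore held the tamoxifen-dependent Cre at the Wt1 locus and the reporter that switches from membrane tdTomato to membrane EGFP. Wt1 is active in the epicardium, the outer cell layer of the heart, and Lats1 and Lats2 are the kinases that restrain the Hippo pathway effectors Yap1 and Wwtr1. The sources used here do not say how many embryos were pooled, when tamoxifen was given or whether cells were sorted.

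In smooth muscle, Acta2 and Actg2 are the actins of the thin filament and Myh11 is the myosin heavy chain that pulls on them. Myl9 is the regulatory light chain whose phosphorylation by Mylk starts contraction. The tropomyosins Tpm1 and Tpm2 lie along the filament, Cnn1 (calponin) and Tagln (transgelin) bind it, and Lmod1 (leiomodin) helps to assemble it. Most of these genes are classical targets of serum response factor (Srf) and its partner myocardin (Myocd), which bind CArG boxes, and several are known to be active for a time in embryonic cardiomyocytes too. Mural cells are the smooth muscle cells and pericytes that wrap blood vessels.

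Cells were assigned to classes by marker gates that used none of the 9 genes. Of 21485 cells kept, 466 passed the mural gate (Rgs5 or Rgs4), 8066 the cardiomyocyte gate (sarcomere genes), 535 the fibroblast gate (Tcf21 with collagen genes) and 443 the epicardial gate (genes such as Upk3b and Krt19). The mural class held 160, 189, 56 and 61 cells in control E13.5, CKO E13.5, control E14.5 and CKO E14.5, with 351539, 431147, 59573 and 76340 UMIs. Totals of the 4 classes ran from 59573 UMIs (mural, control E14.5) to 6138757 (cardiomyocytes, CKO E13.5). The mural gate was supported by 1 gene outside it, Eln, the gene of elastin. Eln stood at 9561 UMIs per 1000000 UMIs of the class (CPM) in mural cells. Its level was 44.6 in cardiomyocytes, 600 in fibroblasts and 1025 in epicardial cells. Mural cells also carried the fibroblast list at 8518 CPM (8108 to 8739 over libraries, 1 of 10 markers at 0), against 17066 in the fibroblast class, and all 5 valve markers at 0, as the gate required. In an unsupervised clustering, 79.6% of the mural cells fell in the cluster of the same name, and 78.3% of the fibroblasts did. Of the mural cells, 138 rested on a single marker and 169 held exactly 1 UMI of Rgs5 or Rgs4. Fibroblasts, gated to hold neither gene, still carried the mural list at 1413 CPM, against 3111 in mural cells. In the data, 563 cells lay between the cardiomyocyte limits and were left out. Libraries shared 14 barcodes in the whole table, and 4 such cells were in the classes.

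The 9 genes formed groups with different orders of level across the classes (plot of level by class and library). All 9 were higher in mural cells than in fibroblasts by mean CPM. Myh11 and Lmod1 were close to absent from the other gated classes, although a small atrial subset of the cardiomyocytes held some Myh11 (below). Acta2 and Actg2 did not pass the test between mural cells and cardiomyocytes, Cnn1, Tpm1 and Myl9 were higher in cardiomyocytes, and Tagln and Tpm2 were higher in fibroblasts than in cardiomyocytes. Means ± SD below are over the 4 libraries, which differ in stage and genotype, so the SD holds those differences too. Differences between classes were tested with edgeR's quasi-likelihood test on UMI counts summed per class and library, with library as a block and Benjamini-Hochberg adjustment over the 7164 genes tested. All fold changes are log2 values, and the ± SE beside them was derived from the log2 value and the F statistic of edgeR's test. It is not a spread between libraries. Nothing in the labels says that the libraries came from separate litters. Because the 3' tag gives 1 count per transcript, lengths of the genes do not enter the CPM.

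**Figure D1:**
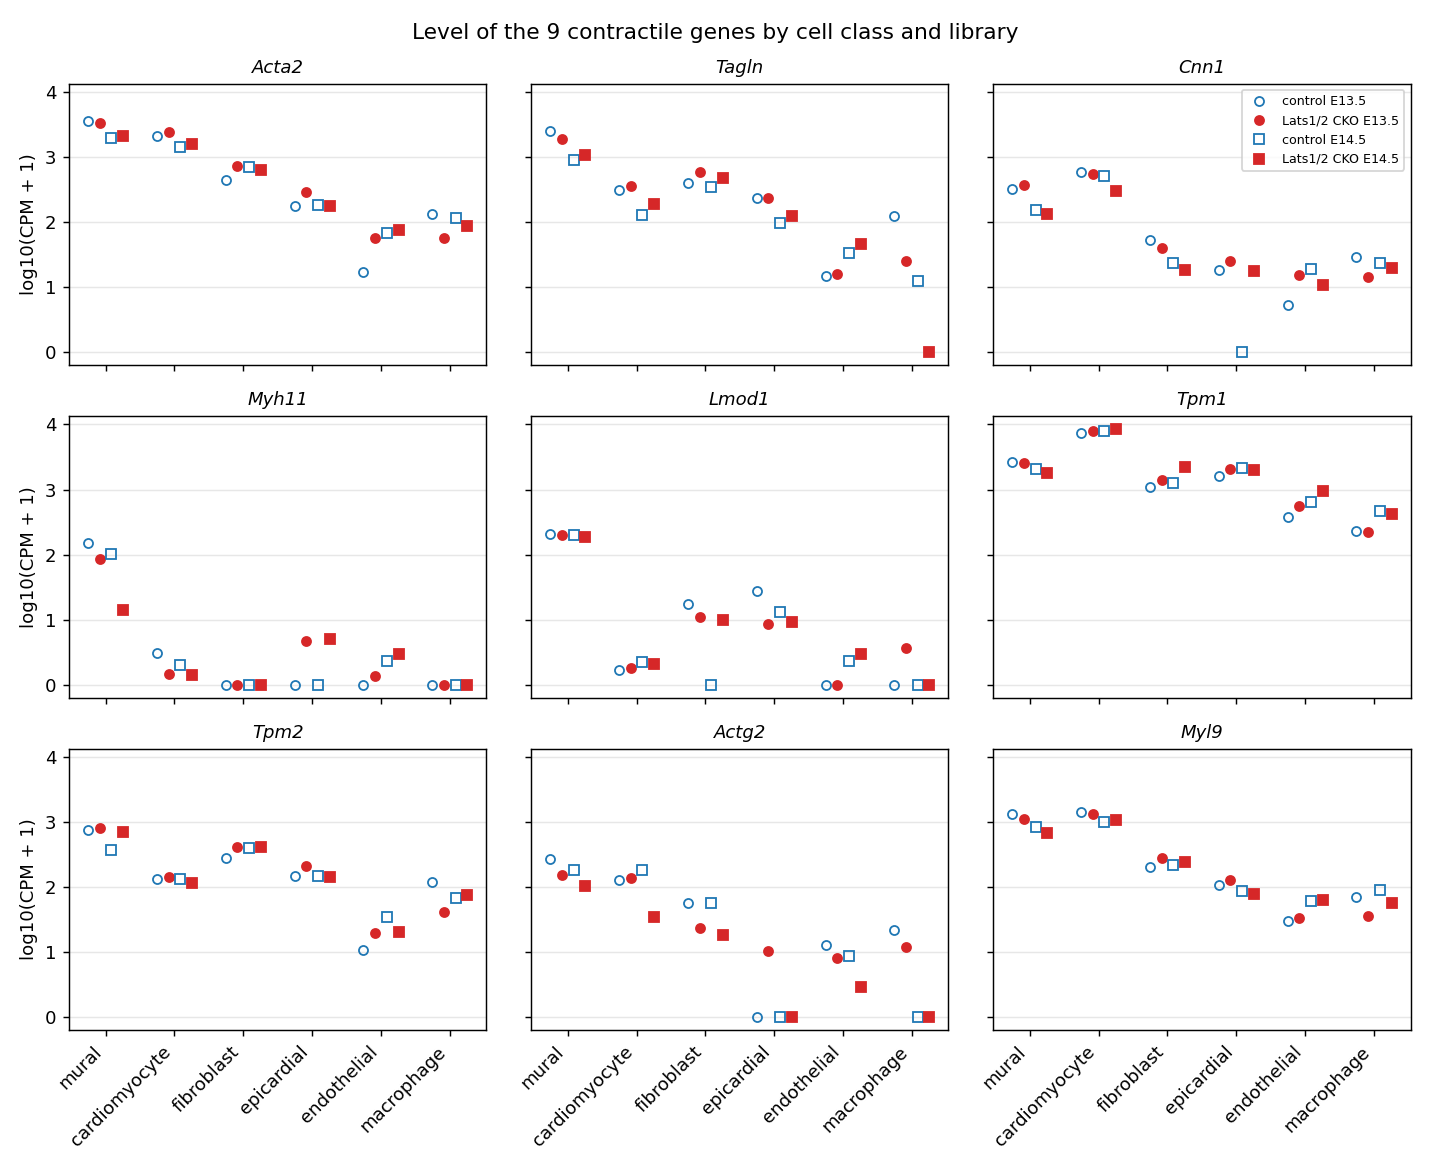
Level of each of the 9 genes as log10(CPM + 1) (vertical axis) in the 4 gated classes and in endothelial cells and macrophages (horizontal axis), 1 point per library. Circles are E13.5 and squares E14.5, open blue symbols are controls and filled red symbols Lats1/2 CKO. Among the plotted classes Myh11 and Lmod1 stand out in mural cells, while Acta2, Myl9 and Tpm1 are high in mural cells and cardiomyocytes.

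Acta2 (smooth muscle alpha actin, ENSMUSG00000035783.9, chr19:34241090-34255590, minus strand, GRCm38) stood at 3638, 3363, 1947 and 2109 CPM in mural cells of control E13.5, CKO E13.5, control E14.5 and CKO E14.5. In cardiomyocytes its values in the same order were 2131, 2444, 1448 and 1577 CPM. In every library the mural value was the higher of the pair, but the ranges of the classes overlapped. Acta2 was 2.21 ± 0.16 higher in mural cells than in fibroblasts (adjusted p = 1.5e-12, edgeR) and 3.74 ± 0.18 higher than in epicardial cells (adjusted p = 6.3e-18, edgeR). Against cardiomyocytes the difference of 0.25 ± 0.14 did not pass the test (adjusted p = 0.14, edgeR). It passed without TMM scaling (0.58), with a stricter gate (0.47) and in cells of at least 1000 UMIs (0.33), and was -0.0088 with clusters in place of gates. TMM, which sets the typical gene at no change, moved the median gene of this contrast by 0.32. Background was 53.4 ± 25.9 CPM in endothelial cells and 97.2 ± 32.7 in macrophages, against 205.9 ± 57.3 in epicardial cells.

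Actg2 (smooth muscle gamma actin, ENSMUSG00000059430.14, chr6:83512905-83536265, minus strand) was the scarcer actin, with 95, 66, 11 and 8 UMIs in mural cells of the libraries in the same order. These gave 270.2, 153, 185 and 105 CPM. Cardiomyocytes held 128, 139, 181.6 and 33.8 CPM, so that the value of the CKO E14.5 library was far below the other 3. Actg2 was 2.42 ± 0.30 higher in mural cells than in fibroblasts (adjusted p = 3.1e-07, edgeR), and 0.31 ± 0.19 against cardiomyocytes (adjusted p = 0.19, edgeR), which passed without TMM (0.63) and without the CKO E13.5 library (0.62) and was -0.02 without the control E13.5 library. In epicardial cells, 5 UMIs in 1 library and 0 in the other 3 put it at or below the endothelial and macrophage background of 7.23 and 7.95 CPM. Acta2, Actg2 and the cardiac actins Actc1 and Acta1 have nearly the same coding sequence, and the sources used here do not say how reads shared among them were counted. Actc1, the main cardiac actin, stood at 364 CPM in mural cells and 359 in fibroblasts, beside 245 in endothelial cells, 288 in macrophages and 13308 in cardiomyocytes.

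Myh11 (ENSMUSG00000018830.10, chr16:14194535-14291372, minus strand) was close to absent from the other 3 classes. Mural cells held 53, 36, 6 and 1 UMIs, or 151, 83.5, 101 and 13.1 CPM. The 535 fibroblasts held 0 UMIs of it, the 443 epicardial cells 3 and the 8066 cardiomyocytes 18. Set against the level that 3 counts over all fibroblasts would give (3.19 CPM), the pooled mural level of 104.5 CPM was 32.8-fold higher. This ratio leaves out counting error and the spread between libraries in mural cells. It was too low in most sums to enter the test. With no filter on low counts it was 5.90 ± 0.38 above cardiomyocytes (adjusted p = 2.1e-52, edgeR) and 4.84 ± 0.56 above epicardial cells (adjusted p = 1.3e-15, edgeR).

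Myl9 (ENSMUSG00000067818.6, chr2:156775420-156781658, plus strand) stood at 1306, 1125, 839 and 681 CPM in mural cells and at 1418, 1333, 999 and 1057 in cardiomyocytes. Cardiomyocytes were higher in each library, by 0.58 ± 0.12 (mural against cardiomyocyte -0.58, adjusted p = 0.00012, edgeR). The call was lost without TMM (-0.25) and with the stricter gate (-0.27). Fibroblasts held 235 ± 35.5 CPM, and mural cells exceeded them by 2.15 ± 0.15 (adjusted p = 4.1e-13, edgeR). In the heart's muscle this light chain is accompanied by the cardiac light chain Myl7, which was the paralog with the largest deficit in mural cells (-5.67).

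The promoters of Acta2 and Myl9 are shown because both genes moved together across the classes (Pearson r = 0.97 over 16 sums of class and library) and because the windows hold the motifs named above. Windows are from RefSeq (GRCm38.p6), 250 bases before to 50 after the gene's start, found for 6 of the 9 genes (Acta2, Cnn1, Lmod1, Tpm1, Tpm2 and Myl9). Capitals mark the match, and each run reads 5' to 3' on the strand of the gene.
Acta2, CArG-like, chr19:34255438-34255467: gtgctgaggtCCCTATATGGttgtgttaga
Acta2, CArG-like, chr19:34255388-34255417: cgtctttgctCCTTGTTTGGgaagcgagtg
Acta2, MCAT core, chr19:34255502-34255531: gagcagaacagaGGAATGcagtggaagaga
Myl9, CArG box then CArG-like, chr2:156775290-156775389: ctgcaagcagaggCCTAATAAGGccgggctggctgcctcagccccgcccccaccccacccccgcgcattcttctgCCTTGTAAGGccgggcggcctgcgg
Lmod1, MCAT core, chr1:135324671-135324700: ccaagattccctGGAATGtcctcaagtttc
Tpm1, MCAT core, chr9:67049252-67049281: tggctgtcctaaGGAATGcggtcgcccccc
The CArG-like matches of Acta2 begin 84 and 34 bases before the start of the gene, and in Myl9 the CArG box begins 161 and the CArG-like match 99 bases before it. A CArG-like match here is a CArG box with 1 inner base that is not A or T. An exact CArG box was in the Myl9 window alone among the 6, and in 1.63% of all 32851 windows. An exact or CArG-like match was in the Acta2 and Myl9 windows, and in 9.98% of all windows, and 0.822% of windows had at least 2. The MCAT core (GGAATG, searched on both strands), the site known for the Tead factors that work with Yap1 and Wwtr1, was in the windows of Acta2, Lmod1 and Tpm1, and in 14.7% of all windows. In GENCODE vM21, the 3 stretches of Acta2 and the stretch of Tpm1 lie within the annotated 5' UTR of their genes, and those of Myl9 and Lmod1 hold no annotated UTR base of theirs. A match describes the letters only, and Cnn1 and Tpm2 had neither motif in their windows.

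Tagln (ENSMUSG00000032085.5, chr9:45929619-45936058, minus strand) separated mural cells from cardiomyocytes where Acta2 did not. It stood at 2475, 1893, 906 and 1074 CPM in mural cells and at 307, 364, 130 and 187 in cardiomyocytes, with no overlap. The difference was 2.40 ± 0.14 (adjusted p = 9.9e-17, edgeR). Fibroblasts held 392, 580, 344 and 478 CPM, above the cardiomyocytes of the same library in all 4. Cardiomyocytes were 0.53 ± 0.15 lower than fibroblasts (adjusted p = 0.0043, edgeR), a call lost with clusters in place of gates (-0.31), with no filter on low counts (-0.34), without the library block (-0.53, adjusted p = 0.25, edgeR) and without the control E14.5 library (-0.40). Tagln overlaps Pcsk7 and an antisense transcript on the other strand, and the sources used here do not say whether the counting used the strand.

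Cnn1 (ENSMUSG00000001349.5, chr9:22099216-22109630, plus strand) went the other way. Cardiomyocytes held 596, 543, 503 and 295 CPM and mural cells 321, 366, 151 and 131, with the cardiomyocyte value higher in each library. Mural cells were 1.18 ± 0.14 below cardiomyocytes (log2 -1.18, adjusted p = 7.6e-09, edgeR) and 3.01 ± 0.24 above fibroblasts (adjusted p = 1.7e-11, edgeR). Epicardial cells held 14.7 ± 10.4 CPM, which is the background of endothelial cells (11.7) and macrophages (20.6).

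Lmod1 (ENSMUSG00000048096.7, chr1:135324807-135368065, plus strand) had the smallest SD of the 9 genes in mural cells, at 205, 202, 201 and 183 CPM over the libraries (198 ± 9.76, from 72, 87, 12 and 14 UMIs). With 12 and 14 UMIs at E14.5, counting error is too large to read this as a steady level. No other class held more than 26.4 CPM in any library, and cardiomyocytes held 18 UMIs in 8066 cells. It was 7.26 ± 0.32 higher in mural cells than in cardiomyocytes (adjusted p = 4.2e-20, edgeR) and 4.40 ± 0.39 higher than in fibroblasts (adjusted p = 1.7e-10, edgeR). Lmod1 passed the filter on low counts through the mural sums, so some difference was built into its test.

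Tpm1 (ENSMUSG00000032366.15, chr9:67022590-67049406, minus strand), which serves striated and smooth muscle through different isoforms that 3' tags counted per gene do not tell apart, was highest in cardiomyocytes. They held 7448 to 8526 CPM over the libraries, mural cells 1782 to 2646, epicardial cells 1595 to 2175 and fibroblasts 1096 to 2195. Mural cells were 2.07 ± 0.15 below cardiomyocytes (log2 -2.07, adjusted p = 1e-14, edgeR). They were 0.72 ± 0.15 above fibroblasts (adjusted p = 0.00084, edgeR), which was lost without the control E13.5 library (0.47), without the CKO E13.5 library (0.63) and without the library block (0.63). Tpm1 was the gene that mural and epicardial cells did not separate (0.25 ± 0.15, adjusted p = 0.31, edgeR), although with clusters in place of gates it was called (0.57).

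Tpm2 (ENSMUSG00000028464.16, chr4:43514711-43523765, minus strand) was highest in mural cells and lowest in cardiomyocytes of the 4 classes by mean CPM. Cardiomyocytes and epicardial cells did not pass the test (-0.05 ± 0.17, adjusted p = 0.81, edgeR). Mural cells held 757, 798, 369 and 707 CPM, fibroblasts 275 to 412, epicardial cells 140 to 214 and cardiomyocytes 113 to 140. Mural cells were 2.10 ± 0.14 above cardiomyocytes (adjusted p = 1.5e-15, edgeR) and 0.96 ± 0.16 above fibroblasts (adjusted p = 2.5e-05, edgeR). Cardiomyocytes were below fibroblasts (-1.14 ± 0.15, adjusted p = 2.3e-08, edgeR). Tpm1 and Tpm2 thus had opposite orders in cardiomyocytes and fibroblasts.

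Counted over the list, 8 of the 8 genes tested were higher in mural cells than in fibroblasts, where 5.28% of all genes were called higher and 3.57% lower. Against epicardial cells 7 of 8 were higher, with 7.04% of all genes called higher and 8.50% lower. Against cardiomyocytes 3 were higher (Lmod1, Tagln, Tpm2) and 3 lower (Tpm1, Cnn1, Myl9), beside 22.2% of all genes called higher and 24.8% lower. Lmod1 is among the genes called higher in each of these counts and enters the medians below. It passed the filter on low counts through the mural sums, so some difference was built into its calls. Cardiomyocytes exceeded fibroblasts for 5 of 8 and fell below them for Lmod1, Tagln and Tpm2, beside 26.4% and 23.4% of all genes. They exceeded epicardial cells for 6 of 8 and fell below them for Lmod1, beside 28.2% and 25.0%. In both of these contrasts Lmod1 rested on few counts: 18 UMIs in cardiomyocytes, 9 in fibroblasts and 13 in epicardial cells. It entered both tests through the mural sums, which lie on neither side of them. Fibroblasts exceeded epicardial cells for 5 of 8 (5.08% of all genes) and fell below them for Tpm1 (7.97%). Of the 5, Actg2 rested on 0 UMIs in 3 of 4 epicardial libraries and lost its call with the stricter gate (2.40, adjusted p = 0.080, edgeR) and without the library block (3.02, adjusted p = 0.058, edgeR). Median log2 differences of the 8 genes were 2.18 for mural over fibroblast, 3.52 for mural over epicardial and 0.28 for mural over cardiomyocyte, against medians near 0 (-0.014, 0.010 and -0.035) over all genes tested. The Tpm1 call between fibroblasts and epicardial cells was lost in 6 of 12 alternatives, and without the control E13.5, CKO E13.5 or control E14.5 library its log2 value was -0.42, -0.42 and -0.38.

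**Figure D2:**
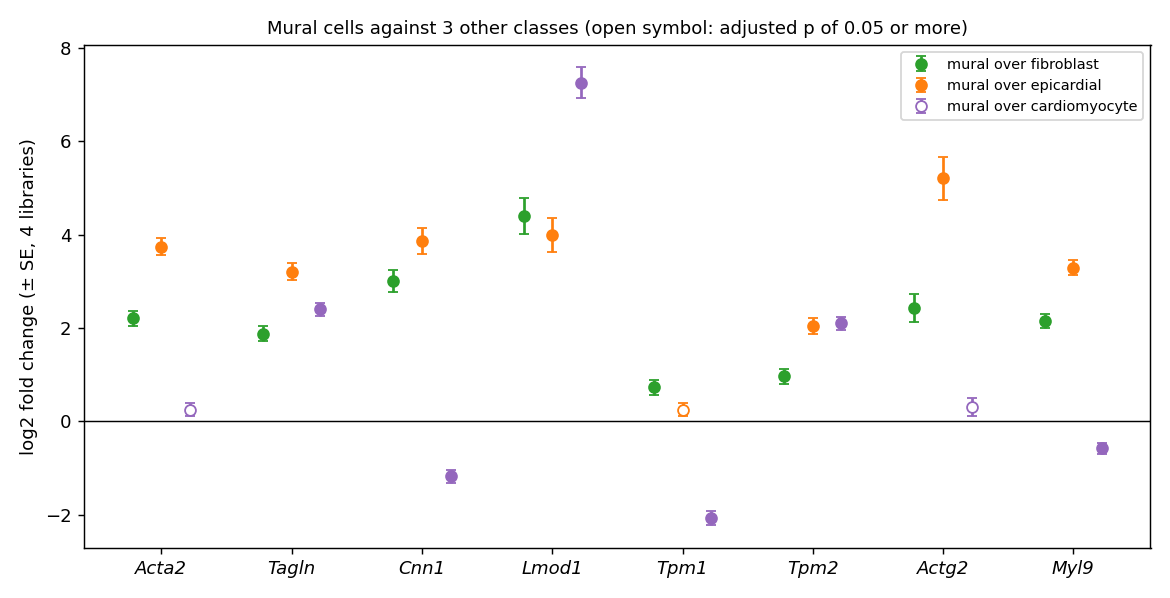
Log2 fold change of the 8 tested genes (vertical axis, genes along the horizontal axis) in mural cells over fibroblasts, epicardial cells and cardiomyocytes of 4 libraries. Bars are ± 1 SE derived from the F statistic of edgeR's test, not a spread between libraries. Open symbols have an adjusted p of 0.05 or more. Against cardiomyocytes the genes spread from Tpm1 at -2.07 to Lmod1 at 7.26, while against fibroblasts all lie above 0.

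Within single cells, 3 or more of the genes were seen together in a larger share of mural cells than of cardiomyocytes in 3 of 4 libraries. After each cell was thinned to 500 UMIs, 51.3% of mural cells held 3 or more of the 9 genes, with a median of 3 genes. The share was 35.8% in cardiomyocytes, 11.96% in fibroblasts and 1.58% in epicardial cells, and 0.351% and 1.10% in endothelial cells and macrophages. A total of 12.02% of mural cells held none of the 9 at this depth. The share in mural cells was 61.3% (control E13.5), 53.4% (CKO E13.5), 41.1% (control E14.5) and 27.9% (CKO E14.5), beside 43.8%, 42.6%, 33.5% and 28.8% in cardiomyocytes. The pooled shares weight the libraries unequally, since most mural cells came from E13.5 and most cardiomyocytes from E14.5. Acta2 was seen in 60.1% of thinned mural cells, 46.8% of cardiomyocytes, 20.2% of fibroblasts and 7.0% of epicardial cells, against 3.04% of endothelial cells and 4.11% of macrophages. Mural cells with an Acta2 UMI held Tagln in 59.6% of cases and those without it in 25.3%. The same pair in fibroblasts was 36.1% and 14.1%, and in cardiomyocytes 10.6% and 7.11%. These shares pool the cells of the 4 libraries, which differ in the levels of both genes, so they hold differences between libraries too. Myh11 was seen in 2.58% and Lmod1 in 7.94% of thinned mural cells. Mural cells with a pericyte marker numbered 10, 11, 7 and 13 per library, too few for the planned comparison with those without one.

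**Figure D3:**
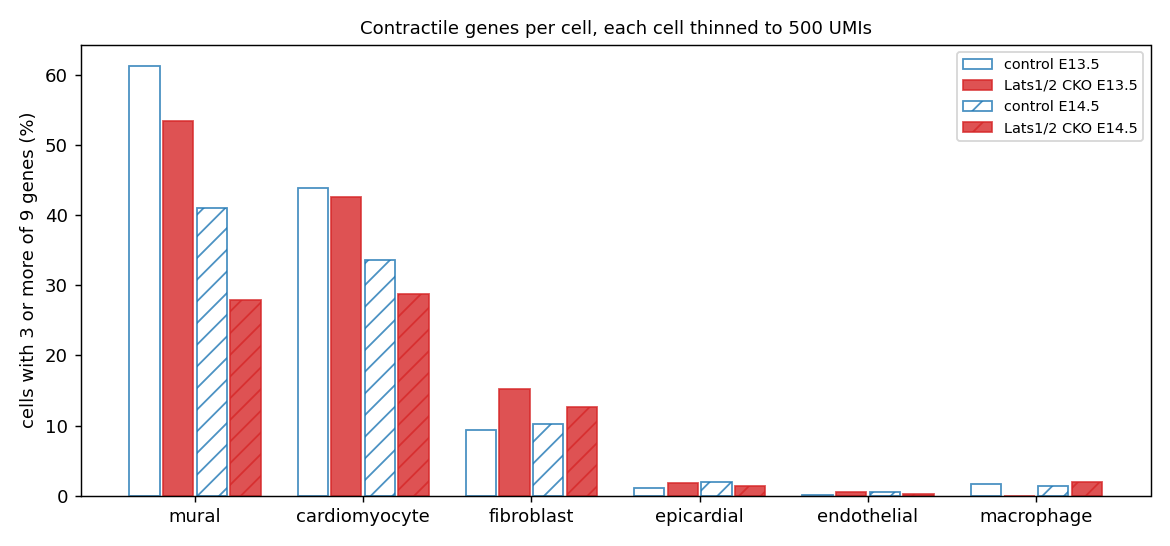
Share of cells (%, vertical axis) that held at least 3 of the 9 genes after thinning to 500 UMIs, by class (horizontal axis) and library; bars are single libraries without error, hatched at E14.5 and filled red in Lats1/2 CKO. The 4 mural bars run from 27.9% to 61.3% and the cardiomyocyte bars from 28.8% to 43.8%.

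Atrial and ventricular cardiomyocytes differed in which of the genes they held. The atrial subset (Sln, Nr2f1 and others, with low Myl2 and Myl3) had 36, 33, 26 and 57 cells, and the ventricular subset 1162 to 1744 per library. Tagln stood at 774, 412, 350 and 752 CPM in atrial cells and at 237, 346, 124 and 159 in ventricular cells, and the atrial value was higher in each library (1.28 ± 0.14, adjusted p = 1.8e-16, edgeR). Myl9 was also higher in atrial cells, with 1780 to 2840 CPM against 969 to 1320 and no overlap (0.88 ± 0.11, adjusted p = 2.5e-14, edgeR). Acta2 was lower, with 1001 to 2077 CPM against 1478 to 2551 (-0.62 ± 0.11, adjusted p = 1.8e-06, edgeR). Tpm2 was called higher (0.59 ± 0.20, adjusted p = 0.041, edgeR), a call that ended in 5 of 9 alternatives, with 0.15 without the CKO E14.5 library and 0.60 (adjusted p = 0.074, edgeR) without the control E14.5 library. In all, 3 of 7 tested genes were higher and 1 lower in atrial cells, beside 3.73% and 7.17% of the 10677 genes tested. The median gene of this contrast stood at -0.16 with TMM. Without TMM, Cnn1 (0.41) and Tpm1 (0.40) were called too, so that 5 were higher and 1 lower. Of the 10677 genes, 523 were then called higher and 368 lower. Myh11 gave 8 UMIs in 152 atrial cells, all at E13.5, and 7 in 6062 ventricular cells. Its level was 23.7 ± 29.7 CPM in atrial cells, with 61.5 in control E13.5, and 0.57 ± 0.41 in ventricular cells.

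The genotype comparison asked whether loss of Lats1/2 in Wt1-expressing lineages was accompanied by a change of the 9 genes in each class. None of them was called in any class. Of 9 tested in mural cells, 7 in cardiomyocytes, 6 in fibroblasts and 5 in epicardial cells, edgeR and DESeq2 called 0 each, and 2, 0, 1 and 0 had an unadjusted p under 0.05. Over all genes, 0.377% were higher and 0.0838% lower in CKO mural cells, 0.239% and 0.0869% in fibroblasts, 0.0988% and 0.0198% in epicardial cells and 0% either way in cardiomyocytes. The fit had 1 library per genotype and stage and left 1 residual degree of freedom. In simulated cardiomyocyte sums it recovered 3% of 2-fold changes, so the lack of a call does not show that a gene held its level. The reporter Egfp, a sign of past Cre activity, stood at 21.8 CPM in mural cells and 19.3 in cardiomyocytes, below the 40.1 of endothelial cells and 30.2 of macrophages, while fibroblasts held 109 and epicardial cells 415. Lats2 was lower in CKO epicardial cells (E13.5: 26.5 against 61.7 CPM, E14.5: 20.6 against 72.9, from 14, 14, 5 and 6 UMIs), and in cardiomyocytes it stayed between 17.8 and 18.9 CPM in all 4 libraries. Lats1 was too scarce in epicardial cells to compare (2 to 11 UMIs), and the sources used here do not say which exons were deleted, so that these 3' tags check the deletion only in part.

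**Figure D4:**
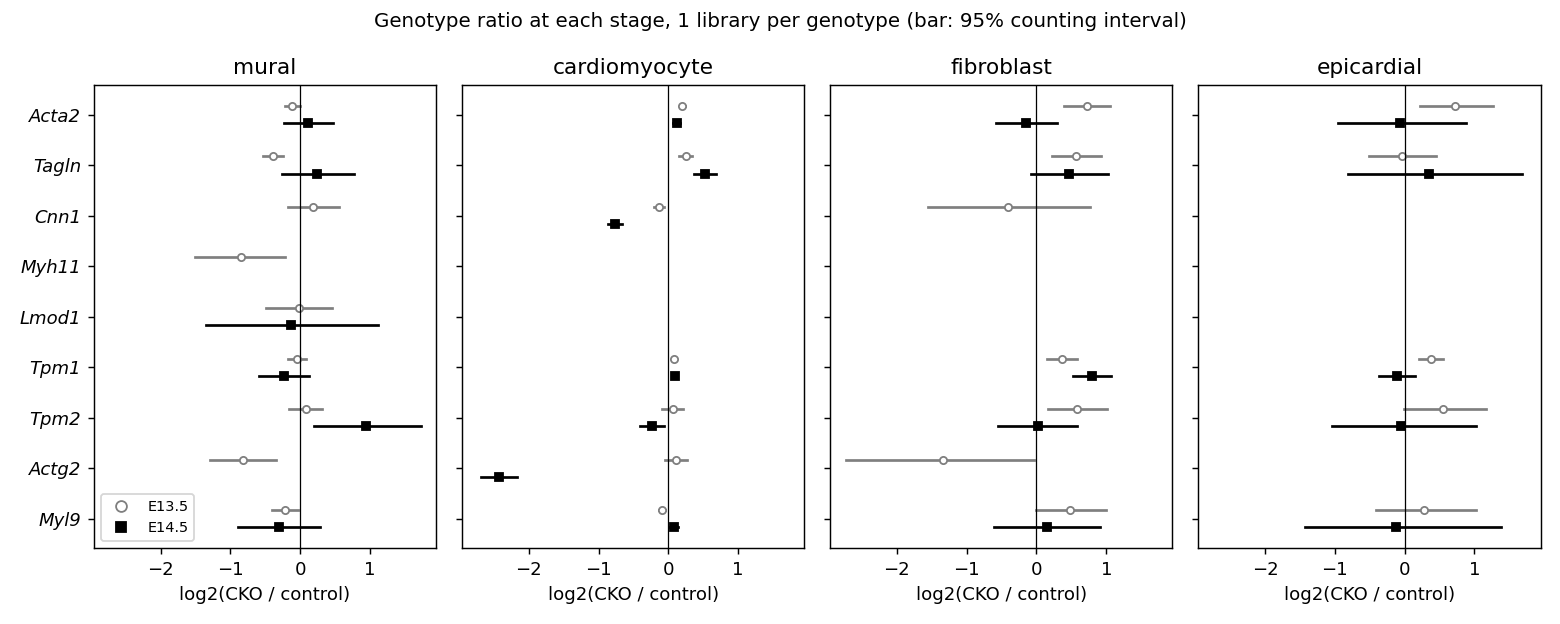
Log2 ratio of CKO to control CPM (horizontal axis) for each gene (vertical axis) in the 4 classes, with open circles for E13.5 and filled squares for E14.5; bars are exact 95% counting intervals between 2 single libraries, and genes with fewer than 20 UMIs in the pair are left out. Actg2 in cardiomyocytes at E14.5 stands far to the left at -2.42.

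Ratios at each stage compare single libraries, and their exact conditional binomial intervals at 95% cover counting error only. In mural cells Acta2 had a log2 ratio of CKO to control of -0.11 (E13.5) and 0.12 (E14.5), and Tagln of -0.39 and 0.24, so that neither held 1 direction. Actg2 was -0.82 at both stages (-1.30 to -0.35 at E13.5, -2.34 to 0.63 at E14.5), and Myh11 was -0.85 (-1.51 to -0.21) at E13.5 and 1 UMI against 6 at E14.5. Tpm2 was 0.08 (E13.5) and 0.94 (E14.5, 0.20 to 1.72). Lmod1 stayed near 0 at both stages (-0.02 and -0.14). Among genes with at least 20 UMIs in the pair, none of 9 (E13.5) or 6 (E14.5) listed genes had a mural ratio past 2-fold. Cnn1, Myh11 and Actg2 had too few UMIs at E14.5 to be counted. The shares of all genes past 2-fold upward and downward were 6.20% and 4.23% (E13.5) and 4.42% and 4.79% (E14.5). Of all genes 0.270% and 0.147% were past 4-fold downward.

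Among pairs with at least 20 UMIs of the gene, the widest genotype ratio was that of Actg2 in cardiomyocytes. It was level at E13.5 (128 CPM in control, 139 in CKO, log2 0.11, -0.04 to 0.27) and at E14.5 stood at 181.6 CPM in control and 33.8 in CKO (712 and 156 UMIs, log2 -2.42, -2.68 to -2.17). The share of thinned cardiomyocytes with an Actg2 UMI was 6.25%, 5.71%, 8.59% and 1.66% in the 4 libraries in the usual order, against 0.351% of endothelial cells over all libraries, and the unthinned shares were 27.2%, 33.4%, 23.5% and 5.54%. The ratio was as large within ventricular cells (-2.37, -2.67 to -2.08), and in atrial cells it was -1.59 (-3.55 to 0.20, from 8 and 5 UMIs). Actg2 was also lower in the CKO E14.5 library in mural cells (105 against 185 CPM), fibroblasts (17.7 against 56.5) and endothelial cells (1.98 against 7.80), on 8, 2 and 2 UMIs. That pair of cardiomyocyte sums differed widely: 9.64% of genes with at least 20 UMIs were past 2-fold lower in CKO, 3.08% past 4-fold lower and 1.72% past 2-fold higher, and Actg2 was the 1 of 7 listed genes past either limit. In the E13.5 pair, with none of the 7 past 2-fold, these shares were 2.63%, 0.446% and 8.08%. Among the 3005 genes with at least 500 UMIs, a limit chosen after the values were seen, 51 (1.70%) were past 2-fold lower and 13 (0.433%) past 4-fold lower, and Actg2 was 1 of these 13. The median mitochondrial share of cardiomyocytes was 5.02% in CKO E14.5 and 3.17% to 3.61% in the other 3, and CKO E14.5 had the highest share in the other 5 classes too (mural 4.15%, epicardial 2.72%). Its part in the result was not tested. In the fit over both stages Actg2 was not called (-1.10 ± 0.68, adjusted p = 0.97, edgeR).

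Other cardiomyocyte genes moved less between genotypes. Cnn1 was lower in CKO at both stages (E13.5: -0.13, -0.21 to -0.06, E14.5: -0.77, -0.87 to -0.67), and Tagln was higher at both (0.25 and 0.53). Tpm1 was at 0.08 and 0.09. In fibroblasts Tpm1 was higher in CKO at both stages (0.36, 0.15 to 0.58, and 0.80, 0.53 to 1.06), from 1096 and 1265 CPM in controls to 1408 and 2195 in CKO. Tagln in fibroblasts was 0.56 and 0.47, and Acta2 0.72 (E13.5) but -0.14 (E14.5). Actg2 in fibroblasts was lower at both stages (-1.34 and -1.67) on 14, 9, 10 and 2 UMIs, and at E13.5 it was the 1 of 7 listed genes past 2-fold in fibroblasts. Of all genes with at least 20 UMIs there, 6.11% were past 2-fold higher, 3.79% past 2-fold lower and 0.264% past 4-fold lower. None of the 5 listed genes with enough UMIs was past 2-fold in the E14.5 pair, where these shares were 5.44%, 6.97% and 1.56%. In epicardial cells Acta2 was 0.73 (E13.5, 0.22 to 1.27) and -0.07 (E14.5), and Tpm1 0.38 and -0.11. None of 5 listed genes was past 2-fold there, beside 6.57%, 4.32% and 0.340% of all genes (E13.5) and 8.47%, 5.53% and 0.357% (E14.5) in the same order.

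Between the stages, 2 of the 9 genes in mural cells were lower at E14.5 by the test. Tagln fell by 1.08 on the log2 scale (adjusted p = 0.0043, edgeR) and Cnn1 by 1.26 (adjusted p = 0.034, edgeR), beside 0.670% of all genes called lower and 2.33% higher. Acta2 had -0.75 (adjusted p = 0.13, edgeR) and Myl9 -0.64 (adjusted p = 0.24, edgeR) without a call, and Lmod1 -0.05. The calls of Tagln and Cnn1 were both lost with DESeq2 (Tagln adjusted p = 0.18), in cells of at least 1000 UMIs and with the stricter gate. The log2 values there were -1.07, -0.93 and -1.09 for Tagln and -1.24, -1.26 and -1.33 for Cnn1. With clusters in place of gates Tagln was -0.82 and Cnn1 -0.30 (adjusted p = 0.099 and 0.67, edgeR). The mural gate itself changed between the stages: 93.1% (control) and 83.1% (CKO) of its E13.5 cells lay in the mural cluster, but 53.6% and 57.4% of its E14.5 cells. Cardiomyocyte markers in mural cells summed to 1087, 1621, 2854 and 2292 CPM in the libraries in the usual order (14 of 14 markers above 0), and erythroid markers to 523, 914, 2568 and 2410 (7 of 7). The median depth of mural cells was 1428.5, 1951, 811.5 and 940.0 UMIs in the same order. The part of these shifts in the result was not tested. In this design, stage cannot be told apart from the capture of each library.

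In cardiomyocytes the same direction was seen for Tagln (E13.5: 307 and 364 CPM, E14.5: 130 and 187) and Acta2 (2131 and 2444, then 1448 and 1577), without overlap between the stages. Neither was called by edgeR (Tagln -1.07, adjusted p = 0.35, Acta2 -0.57, adjusted p = 0.40), 2 of 7 genes had an unadjusted p under 0.05, and DESeq2 called Tagln alone (-1.04, adjusted p = 0.00086). Of all genes, 0.0866% were called higher and 0% lower at E14.5 in cardiomyocytes. In fibroblasts and epicardial cells edgeR and DESeq2 called 0 of 6 and 0 of 5 genes, with 0 and 1 at an unadjusted p under 0.05, beside 1.72% and 1.19% of all genes called higher and 0.174% and 0.0988% lower.

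The other genes of the contractile pathway, in lists chosen with earlier results known, followed the 9 genes in part. Among 19 tested smooth muscle cytoskeletal genes, 9 were higher and 1 lower in mural cells than in fibroblasts, led by Synpo2 (a Z-disc and stress fibre protein, 3.44), Hspb6 (a small heat shock protein, 2.50) and Nexn (an actin-binding protein, 1.54), with Pdlim3 lower (-0.68), where 5.28% of all genes tested were called higher and 3.57% lower. Against cardiomyocytes 11 of these were higher, led by Flna (filamin A, 3.09), Pdlim7 (3.07) and Cald1 (caldesmon, 2.95), and 5 lower, led by Ldb3 (-4.93), Fhl2 (-3.54) and Des (desmin, -3.43), where 22.2% of all genes were higher and 24.8% lower. Their median was 0.53 against fibroblasts and 0.49 against cardiomyocytes. Of 14 genes that regulate the light chain, 5 were higher than in fibroblasts, led by Prkg1 (cGMP-dependent kinase, 1.30), Ppp1cb (0.91) and Cald1 (0.80), and none lower (all genes: 5.28% and 3.57%). Against cardiomyocytes 6 were higher, led by Ppp1r14a (5.25), Mylk (myosin light chain kinase, 3.57) and Cald1, and 2 lower, Ppp1r12b (-1.70) and Calm3 (-0.48) (all genes: 22.2% and 24.8%). Their medians were 0.49 and 0.40.

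Of 19 tested paralogs of the 9 genes, Myh10 was higher in mural cells than in fibroblasts (0.47) and Tagln2 (-0.78) and Tmod3 (-0.66) were lower, with a median of -0.04, beside 5.28% of all genes higher and 3.57% lower. Against cardiomyocytes 11 were higher, led by the cytoplasmic Actb (3.02), Tagln2 (2.79) and Tpm4 (2.70), and 8 lower, led by the cardiac Myl7 (-5.67), Myh6 (-5.61) and Myh7 (-5.52), beside 22.2% and 24.8% of all genes. Actg1 gave only 14 UMIs in mural cells, and the near-identical copies of this gene leave its count uncertain.

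Among 18 tested regulators, Myocd was the one with the largest excess in mural cells over fibroblasts (3.20 ± 0.59, adjusted p = 0.00016, edgeR). It stood at 49.0 CPM in mural cells, 77.4 in cardiomyocytes, 5.32 in fibroblasts and 2.78 in epicardial cells, and mural cells were below cardiomyocytes (-0.98 ± 0.26, adjusted p = 0.0022, edgeR). Srf, its DNA-binding partner, did not pass between mural cells and fibroblasts (0.06 ± 0.32, adjusted p = 0.96, edgeR) or cardiomyocytes (-0.43 ± 0.25, adjusted p = 0.15, edgeR), at 51.2, 52.9 and 49.96 CPM in mural cells, cardiomyocytes and fibroblasts. Mkl1 and Mkl2, the related coactivators, were too low for the class test, with 7 and 15 UMIs in mural cells. Klf2 (1.62) and Wwtr1, a target of Lats1/2 (1.15), were also among the 5 regulators higher than in fibroblasts, and Gata4 (-1.64) and Tbx20 (-1.54) were the 2 lower, with a list median of -0.06, beside 5.28% and 3.57% of all genes. Against cardiomyocytes 7 were higher, led by Klf2 (4.34), Prrx1 (2.72) and Klf4 (2.53), and 5 lower, led by Fhl2, Gata4 (-1.83) and Tbx20 (-1.04), with a median of 0.38, beside 22.2% and 24.8% of all genes.

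Between genotypes, 1 gene of these lists was called. Myl6, the essential light chain of smooth and non-muscle myosin, stood at 213 and 621 CPM in control mural cells (E13.5, E14.5) and at 575 and 1048 in CKO mural cells, from 75, 37, 248 and 80 UMIs. The difference was 1.16 (adjusted p = 0.015, edgeR), and this gene is named because it was the single call, after its values were seen. The call held without the highest doublet scores (1.21, adjusted p = 0.044, edgeR) and ended in the other 6 alternatives, with adjusted p from 0.063 (no filter, log2 1.19, edgeR) to 0.999887 (DESeq2, log2 1.14). With clusters in place of gates the value was 0.83, and with the stricter gate, where 0 of 3420 genes were called, it was 1.27. It was 1 of 17 tested cytoskeletal genes in mural cells, and none of the paralogs (15 tested), light chain regulators (10) or other regulators (11) was called there. Of all 4774 genes tested in mural cells, 0.377% were called higher in CKO and 0.0838% lower.

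Across the 16 sums of class and library, the 9 genes fell into patterns that the class order above sets. These correlations of log2 CPM are descriptions over points that share libraries and classes. Acta2 and Myl9 had r = 0.97, Cnn1 and Myl9 0.96, Acta2 and Actg2 0.92 and Tagln and Tpm2 0.89, while Tpm1 had -0.59 with Lmod1 and -0.52 with Tpm2. Outside the list, the genes most like Acta2 were Ehbp1l1 (0.89), Csrp2 (0.87) and C530008M17Rik (0.85), and those most like Myl9 were Ehbp1l1 (0.92), Dgkk (0.89) and C530008M17Rik (0.88). Actg2 was nearest to Csrp2 (0.86), Tuba1c (0.86) and Msn (0.85), and Tagln to Fblim1 (0.91), Cnn2 (0.91) and Dkk3 (0.90). Lmod1 was nearest to Clca3a2 (0.97), Eln (0.96) and Angpt2 (0.96), and Tpm2 to Gpc6 (0.92), Actn1 (0.91) and Gp1bb_Sept5 (0.91), the last being a joint row of the table. Cnn1 was nearest to Ptges3l (0.91), the joint mitochondrial row mt-Nd4_mt-Nd4l (0.91) and Rrad (0.90), and Tpm1 to Sucla2 (0.95) and Mlip (0.95). Myh11 was too low for this measure.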

How the data were processed

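The 4 libraries were deposited as 1 table of raw UMI counts per gene and cell, made by the authors before deposit with no normalization in its values. STAR, Picard and mm10 are named, without versions, per the submitters' processing notes, and the gene models are not given in the sources used here. Cells with at least 500 UMIs, 300 genes and at most 20% mitochondrial UMIs were kept (21485 of 24849). Library totals and depths are given by class, and precision is limited by the counts given.

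Cells were classed by marker gates whose thresholds were set after the marker counts, not the 9 genes, had been seen. The gates of the 4 classes needed at most 2% erythroid UMIs, no Scrublet doublet call and at most 1 endothelial and 1 macrophage marker. Mural cells had an Rgs5 or Rgs4 UMI, under 1% cardiomyocyte-marker UMIs, no Tcf21 or valve marker and at most 1 epicardial marker. Fibroblasts had at least 3 fibroblast markers with Tcf21, no Rgs5, Rgs4 or valve marker and at most 1 epicardial marker. Epicardial cells had at least 3 epicardial markers, and cardiomyocytes at least 4 markers and 2% of UMIs. The endothelial and macrophage background cells had at least 3 markers of their kind and no Rgs5 or Rgs4. Cells with a UMI of either gene were thus left out of fibroblasts and background, and the effect on the 9 genes there was not tested. Scrublet (expected rate 5%) called 7, 0, 1 and 2 cells and cannot be taken to have worked, so an alternative left out the 5% of cells with the highest scores. Leiden clusters (resolution 1.0, 2000 variable genes, 30 components, 15 neighbours) gave an alternative classing.

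UMI counts were summed per class and library and tested with edgeR's quasi-likelihood test (TMM, filter on low counts, Benjamini-Hochberg over all genes tested). Class contrasts had library as a block, since every class of a library comes from the same sample. Genotype and stage were tested in 1 additive fit per class over the 4 libraries. Those fits left 1 residual degree of freedom, so their p-values borrow much of their error from dispersion shared across genes. The p-values measure each gene's own spread between single libraries, which may be technical, only in part. Ratios between 2 libraries carry exact 95% conditional binomial intervals, which cover counting error only, and use genes with at least 20 UMIs in the pair. Shares of cells were computed after thinning every cell to 500 UMIs. The tests were tried on simulated data with known changes at a dispersion of 0.05, where the real fits had 0.0115 (4 classes) and 0.0755 (cardiomyocytes). Of 2-fold changes, 15.5% were recovered in mural over fibroblast and 3% in CKO over control in cardiomyocytes, with 2 and 0 false calls. Of 4-fold changes, 76% and 94.5% were recovered, with 6 and 16 false calls. Alternatives were DESeq2, no TMM, no filter, cells of at least 1000 UMIs, fewer doublet candidates, a stricter gate, clusters, each library left out and no library block.

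All 9 genes are named in every comparison. From the other lists, up to 3 genes with the largest called change each way in mural cells over fibroblasts and over cardiomyocytes are named, with Srf, Myocd, Mkl1 and Mkl2. For each of the 9 except Myh11, the 3 genes with the highest Pearson r were taken, and 1 of them is not reported here. The 9 genes, the lists and the tests were chosen with earlier results of these data known. Myl2 and Tcf21 served in gates and were left out of the list counts. Versions were Python 3.11.15, scanpy 1.11.5, numpy 2.4.6, scipy 1.17.1, pandas 2.3.3, R 4.3.3, edgeR 4.0.16, limma 3.58.1 and DESeq2 1.42.0.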

Additional observations from a re-analysis of the deposited data

Results flagged for a closer look

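Actg2 in cardiomyocytes moved in opposite directions between the stages in the 2 genotypes. The log2 ratio of E14.5 to E13.5 was 0.50 in controls (128 to 181.6 CPM) and -2.03 in Lats1/2 CKO (139 to 33.8 CPM), and this difference was not tested, since each value compares 2 single libraries.

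Myl9 in cardiomyocytes had a log2 ratio of CKO to control of -0.0893 in the E13.5 pair and 0.0818 in the E14.5 pair. Both ratios are small, and their difference was not tested.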

How the results depend on the processing

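Values are log2 unless a count is given. Over the values of single genes under the alternatives, 930 kept their direction and side of the threshold, 33 lost a call, 10 gained one and 31 turned direction, none of the 31 with a call on either side. Of the counts of genes called, 130 stayed within 1.5 times and 7 did not.

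Without a replicate block, and so without pairing the classes of a library, 7 genes were called between mural cells and fibroblasts, 6 between mural cells and cardiomyocytes, 7 against epicardial cells, and 7, 6 and 4 in the other 3 contrasts. With 1 library left out, the genes called ranged from 7 to 9 (mural over fibroblast), 6 to 7 (mural over cardiomyocyte), 7 to 8 (mural over epicardial), 7 to 8 (cardiomyocyte over fibroblast), 7 to 7 (cardiomyocyte over epicardial), 5 to 6 (fibroblast over epicardial) and 3 to 4 (atrial over ventricular). The values that turned there ranged from -0.0165 to 0.62 for Actg2 (mural over cardiomyocyte), -0.12 to 0.0671 for Tpm2 (cardiomyocyte over epicardial) and -0.0265 to 0.29 for Cnn1 (atrial over ventricular).

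The 2 mural genes lower at E14.5 became 0 in cells of at least 1000 UMIs, 1 without the highest doublet scores, 0 with the stricter gate, 0 with clusters, 1 without TMM and 0 with DESeq2, and the cause was not tested. In cardiomyocytes DESeq2 called 1 gene between stages.

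With clusters, direction turned for Acta2 (-0.0088) and Actg2 (-0.11) in mural over cardiomyocyte, Tpm2 in cardiomyocyte over epicardial (0.24), mural genotype Lmod1 (0.40) and Tpm1 (0.20), mural stage Lmod1 (0.43) and Tpm1 (0.36), fibroblast stage Actg2 (0.80), epicardial genotype Tpm2 (-0.015), and epicardial stage Acta2 (0.0079), Myl9 (0.60) and Tagln (0.042). With the stricter gate it turned for mural genotype Tpm1 (0.045), mural stage Actg2 (0.22) and Lmod1 (0.27), and epicardial genotype Tagln (-0.24), Tpm1 (-0.036) and Tpm2 (-0.67). In cells of at least 1000 UMIs it turned for mural genotype Cnn1 (-0.10) and Lmod1 (0.18), fibroblast stage Myl9 (-0.054) and epicardial genotype Tagln (-0.061). Without TMM it turned for mural genotype Acta2 (-0.014), cardiomyocyte genotype Myl9 (-0.0044) and fibroblast stage Myl9 (-0.092). With no filter it turned for Tpm2 in cardiomyocyte over epicardial (0.14) and fibroblast stage Myl9 (-0.077), which was also -0.0076 without the highest doublet scores.

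The comparison of mural cells with and without pericyte markers was not run, with 10, 11, 7 and 13 such cells per library. Mural sums at E14.5 held 59573 and 76340 UMIs, which limits Myh11, Actg2, Cnn1 and Lmod1 there to 1 to 14 UMIs.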
